A study of Mus musculus with 2 samples.

Results

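The microglia identity genes are 9 genes that together mark the resident macrophage of the brain: Csf1r, Cx3cr1, P2ry12, Trem2, Tmem119, Aif1, C1qa, Spi1 and Sall1. They were chosen as a named list and make up 9 of 21938 protein-coding genes of GENCODE release M21 on chromosomes 1 to 19, X and Y. Open chromatin around them was read from DNase-seq of left cerebral cortex. The tissue came from male mice, 2 months old, of the strain B6CASTF1/J, an F1 hybrid between C57BL/6J and CAST/EiJ. There were 2 libraries, biological replicates 1 and 2 of a single untreated group, which the labels give as separate animals under a donor record for the strain. With 1 group of 2 libraries no test between conditions was possible and no p-value was computed.

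DNase I cuts DNA where nucleosomes leave it exposed, so a peak marks a stretch that is open in some of the nuclei in the tissue. Microglia arise from yolk sac progenitors, depend on signalling through the receptor CSF1R, and keep their identity through transcription factors led by PU.1, the product of Spi1, together with SALL1. They survey the tissue through purine and chemokine receptors, and in a cortex they are outnumbered by neurons and other glia. Whole tissue was used, so fewer microglia and a lower signal per microglial nucleus cannot be told apart.

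Each replicate came with a shorter and a longer peak list. The track of false discovery rates (FDR) reached below 0.001 in 100% of the peaks in the shorter lists but in 61.5% (replicate 1) and 63.7% (replicate 2) of those in the longer lists, and the shorter list is called the stricter one here. Heights are the authors' values, and no source used here gives their scale. They are whole multiples of a smallest step, and that step was 1.56 times larger in replicate 2 than in replicate 1. After overlapping peaks were joined, the stricter lists held 63928 peaks in replicate 1 and 76440 in replicate 2, with median heights of 0.915 and 0.689. The longer lists held 108421 and 127162 peaks, with medians of 0.566 and 0.486. The read depth of each library is unknown. Promoters were counted within 500 bp of every start of transcription (TSS) that GENCODE annotates for a gene. The locus of a gene reached 50 kb beyond either end of its body, and a shared region had a peak in each replicate that overlapped by at least 1 bp.

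In the stricter lists no peak shared by both replicates covered a GENCODE start site of these genes. The sequences below are the tallest shared region nearest to Cx3cr1, Trem2, Spi1 and, in the longer lists, P2ry12, and the shared promoter regions of Aif1 and Sall1, on GRCm38.p6 (mm10) and on the strand of the gene. Capitals mark bases that lay inside a footprint, a short protected stretch called by the authors, in both replicates. The Aif1 and Sall1 regions are shown without the bases that RefSeq places in exons.
Cx3cr1, chr9:120073241-120073480, minus strand: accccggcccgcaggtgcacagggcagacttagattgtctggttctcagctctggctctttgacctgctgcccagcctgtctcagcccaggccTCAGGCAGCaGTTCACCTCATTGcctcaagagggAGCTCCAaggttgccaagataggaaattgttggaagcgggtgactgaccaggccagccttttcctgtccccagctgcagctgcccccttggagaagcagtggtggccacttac
P2ry12, chr3:59231001-59231240, minus strand: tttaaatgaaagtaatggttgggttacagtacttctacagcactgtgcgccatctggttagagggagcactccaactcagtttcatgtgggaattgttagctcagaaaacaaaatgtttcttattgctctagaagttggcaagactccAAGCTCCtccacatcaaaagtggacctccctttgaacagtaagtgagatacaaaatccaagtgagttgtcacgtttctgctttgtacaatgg
Trem2, chr17:48336961-48337160, plus strand: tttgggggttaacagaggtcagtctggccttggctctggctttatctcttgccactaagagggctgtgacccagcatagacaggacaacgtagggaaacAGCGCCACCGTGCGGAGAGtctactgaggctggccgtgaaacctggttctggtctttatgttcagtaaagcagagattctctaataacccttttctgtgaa
Spi1, chr2:91101481-91101680, plus strand: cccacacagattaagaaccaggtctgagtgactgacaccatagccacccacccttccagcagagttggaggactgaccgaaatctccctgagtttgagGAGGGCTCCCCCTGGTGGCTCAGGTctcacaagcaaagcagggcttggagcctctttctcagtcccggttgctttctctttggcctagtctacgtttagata
Aif1, chr17:35172850-35173069, minus strand: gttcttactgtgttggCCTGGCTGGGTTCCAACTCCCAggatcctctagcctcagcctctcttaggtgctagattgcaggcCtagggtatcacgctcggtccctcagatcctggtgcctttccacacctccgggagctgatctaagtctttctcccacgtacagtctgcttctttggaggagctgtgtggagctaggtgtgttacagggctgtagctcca
Sall1, chr8:89043513-89043740, minus strand: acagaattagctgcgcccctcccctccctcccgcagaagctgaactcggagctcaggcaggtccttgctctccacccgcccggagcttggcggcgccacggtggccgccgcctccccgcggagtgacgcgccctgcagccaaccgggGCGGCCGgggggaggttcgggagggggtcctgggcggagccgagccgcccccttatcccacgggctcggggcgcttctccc

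The footprints of both replicates covered 29 of the same bases at Cx3cr1, 19 at Trem2, 25 at Spi1, 23 at Aif1, 7 at P2ry12 and 7 at Sall1. At Trem2 the footprint of replicate 1 was 30 bases long and held all 19 bases of the footprint of replicate 2. At Spi1 a footprint of 33 bases in replicate 1 and a footprint of 26 bases in replicate 2 shared 25 bases. At P2ry12 the shared bases were the overlap of a 13-base footprint in replicate 1 and a 21-base footprint in replicate 2.

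Promoters of the 9 genes mostly had no peak. In the stricter lists 2 of 9 genes, Aif1 and Sall1, had a promoter peak in both replicates, where 56.2% of all coding genes did. Within a replicate it was 2 of 9 in replicate 1, where 61.6% of all coding genes had one, and the same 2 of 9 in replicate 2, where 57.1% had one. The longer lists added Spi1, for 3 of 9 genes against 61.0% of all coding genes. A peak that covered a TSS base itself in both replicates was found at 0 of 9 genes in the stricter lists, against 45.0% of all coding genes, and at 1 of 9 in the longer lists, against 49.2%.

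**Figure D1:**
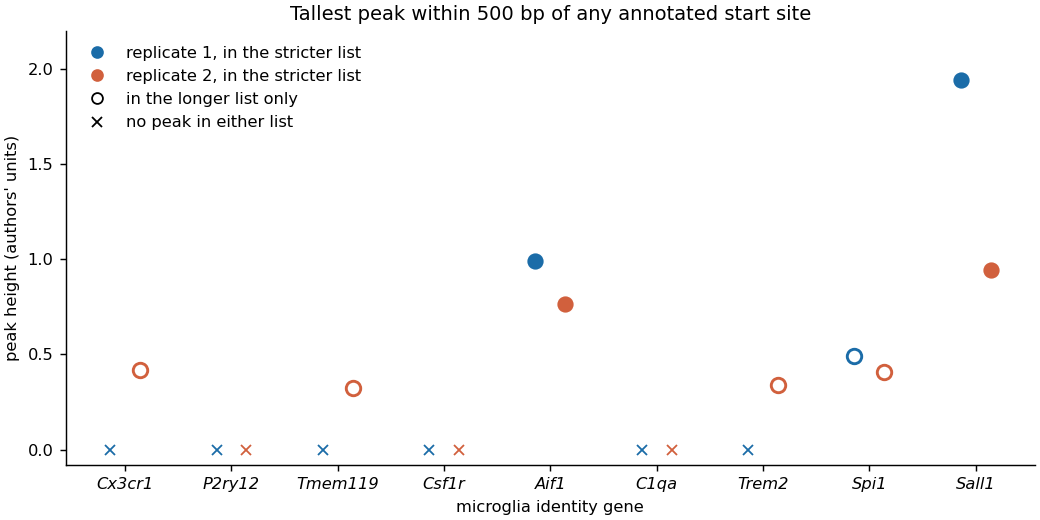
Height of the tallest peak within 500 bp of any annotated start site of each gene (vertical axis, the authors' units) in replicate 1 (blue) and replicate 2 (orange), with filled circles for peaks of the stricter list, open circles for peaks found in the longer list only and crosses for no peak. Aif1 and Sall1 have filled circles in both replicates, Spi1 has open circles in both, and Cx3cr1, Tmem119 and Trem2 have an open circle in replicate 2 alone.

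These promoters were also poor in CpG, the feature that goes with open promoters across the genome. Observed over expected CpG within 500 bp of the outermost TSS lay between 0.158 (Aif1) and 0.342 (P2ry12) for 8 of the genes and was 0.635 for Sall1. When all coding genes were ordered by this ratio in 20 bins, between 12.9% and 36.8% of genes in the bins of those 8 had a promoter peak in both stricter lists, and 78.8% in the bin of Sall1. The start sites with a peak at Spi1, Aif1 and Cx3cr1 lay at least 14390, 2790 and 1583 bp from the outermost one. The coding start sites of Csf1r lay at least 4974 bp from it. These ratios therefore do not describe the sequence at those start sites. The part of CpG content in the promoter count was not tested.

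None of the 4 receptor genes had a promoter peak in both replicates. Csf1r, the receptor for the growth factors encoded by Csf1 and Il34, had no peak in either list and no base with an FDR under 0.05 within 500 bp of any of its 6 start sites. The nearest such base was 2601 bp from a start site in replicate 1 and 2547 bp in replicate 2. P2ry12, the ADP receptor that steers microglial processes to injury, likewise had no promoter peak and no listed base in either replicate, and its nearest listed bases were 1449 bp away in replicate 1 and 1176 bp in replicate 2.

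Cx3cr1, the receptor for the neuronal ligand CX3CL1, had no promoter peak in replicate 1 and a height of 0.419 in the longer list of replicate 2. That peak, 120068247 to 120068380 on chromosome 9, covered both closely spaced start sites of the shorter transcripts at 120068283 and 120068296 and held no footprint in either replicate. In replicate 2 the FDR reached 0.00177 and 209 promoter bases were listed, while replicate 1 had none. In steps of the height scale the peak was 62 steps high.

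Trem2, a lipid-sensing receptor that signals through the adaptor TYROBP, had the same pattern. There was no promoter peak in replicate 1, and replicate 2 had a height of 0.338, or 50 steps, in the longer list at 48346387 to 48346460 on chromosome 17, over the TSS at 48346401. The lowest FDR in replicate 2 was 0.0101, over 115 listed bases, and 1 footprint lay there. Just outside the 500 bp window, replicate 1 had a peak of 0.380 in its longer list, at 48347055 to 48347109, with 2 footprints. The nearest listed base of replicate 1 was 566 bp from a start site. The RefSeq table (GRCm38.p6) holds a promoter for Trem2, Cx3cr1, P2ry12, Aif1 and Sall1. The 250 bases before the Trem2 start are shown because their last bases lie in the replicate 2 peak. Capitals mark a match to TGANTCA, searched here as a pattern for AP-1 factors with any base allowed at N. In this match N is A.
Trem2 upstream, chr17:48346151-48346400, plus strand: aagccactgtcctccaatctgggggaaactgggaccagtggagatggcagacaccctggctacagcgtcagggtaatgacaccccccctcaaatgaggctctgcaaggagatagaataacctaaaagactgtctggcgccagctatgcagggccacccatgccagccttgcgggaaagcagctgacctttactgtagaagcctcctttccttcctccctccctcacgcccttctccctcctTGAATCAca
Matches to TGANTCA, with any base at N, occur in the same 250 bases, on either strand, in 6.13% of 20150 RefSeq promoters of coding genes. A match is a description of the sequence and not evidence of binding.

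Tmem119, a membrane protein used as a microglia marker, likewise had no promoter peak in replicate 1 and a height of 0.324, or 48 steps, in the longer list of replicate 2. The peak ran from 113800392 to 113800489 on chromosome 5, over the start site at 113800446. In replicate 2 the lowest FDR was 0.00953 and 98 bases were listed, and in replicate 1 the nearest listed base was 14246 bp away.

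Promoter signal in replicate 2 alone was therefore found at 3 of 9 genes by the FDR track, where 1.12% of all coding genes had it, and signal in replicate 1 alone at 0 of 9, where 4.77% had it. At Trem2 this rests on the 500 bp window, since replicate 1 had a listed base 566 bp from a start site. Of 55 other microglia-related genes 0 had it in replicate 2 alone and 11 in replicate 1 alone. Of 53 markers of other cell types 2 had it in replicate 2 alone and 5 in replicate 1 alone. With 1 library against 1 library the difference has no replicate check. The smallest height step also differed between the libraries, and its part in the difference was not tested.

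**Figure D2:**
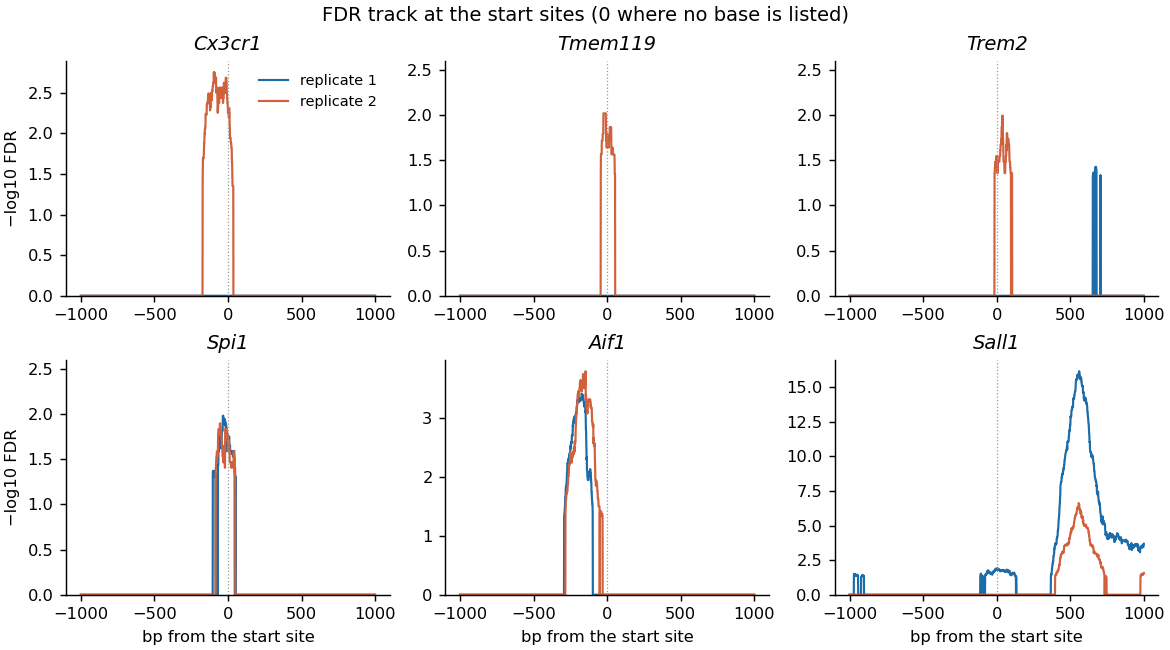
FDR of the cut rate as −log10 (vertical axis, 0 where no base is listed) against distance in bp from the start site nearest to the tallest promoter peak, positive downstream on the gene's strand, for replicate 1 (blue) and replicate 2 (orange). Only replicate 2 rises at the start sites of Cx3cr1, Tmem119 and Trem2, both replicates rise at Spi1 and upstream of the Aif1 start, and the Sall1 signal is centred 561 bp downstream of its annotated start.

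Aif1, which encodes the calcium- and actin-binding protein IBA1, had promoter heights of 0.993 in replicate 1 and 0.763 in replicate 2. These stand above 54.1% and 56.5% of the peaks of the stricter lists, so the peak was of middling height in both. It did not lie at the outermost start site at 35176068 on chromosome 17 but inside the gene, at 35172850 to 35173100, between annotated start sites of shorter protein-coding transcripts at 35172819 and 35173278. The start at 35173278 is 2790 bp from the outermost one. Footprints numbered 3 in replicate 1 and 5 in replicate 2, and the lowest FDR was 0.000385 and 0.00016.

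C1qa encodes a chain of C1q, the recognition molecule of the classical complement pathway, and had no promoter peak in any list. Its nearest listed base was 4516 bp from the TSS in replicate 1 and 4617 bp in replicate 2. The gene lies in a cluster with C1qc and C1qb, and signal shared by both replicates was found there only in the longer lists. The C1qc promoter, at 136892877 to 136893111 on chromosome 4, had heights of 0.579 and 0.560 with 2 footprints in each replicate. A second region at 136894041 to 136894240, 1076 bp from the C1qc TSS, had a height of 1.17 in the stricter list of replicate 1 and 0.527 in the longer list of replicate 2.

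Of the 64 regions shared in the longer lists over all 9 loci, only the C1qc promoter region held the PU.1 letters GAGGAAGT. Those letters occur in 2.28% of 20150 RefSeq promoters of coding genes and in 2.31% of 45009 shared distal regions of the longer lists. The distal share was read in windows of 300 bp. These shares are not like for like, since the 64 regions differ in class and width. A single site among 64 regions does not set these loci apart. The C1qc site lies at 136893102 to 136893109, on the plus strand, outside the footprints of both replicates. It is shown in capitals with its flanks.
C1qc PU.1 site, chr4:136893094-136893117, plus strand: gccaaaatGAGGAAGTgtctgccg

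Spi1 encodes PU.1, an ETS factor required for all macrophages. Its outermost start site at 91082390 on chromosome 2 had no promoter peak in any list. A low peak shared by both replicates in the longer lists lay at an internal start site at 91096780, from 91096677 to 91096832. Its heights were 0.492 in replicate 1 and 0.405 in replicate 2. These were 114 and 60 steps high. Spi1 was the only member with a peak over a GENCODE TSS base in both replicates. The lowest FDR was 0.0104 and 0.0126, and 5 footprints in replicate 1 and 1 in replicate 2 were called there.

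Sall1, a zinc-finger factor that separates microglia from other macrophages, had the tallest promoter of the list, with heights of 1.94 in replicate 1 and 0.945 in replicate 2, above 78.6% and 68.3% of the stricter peaks. The region, 89043461 to 89043740 on chromosome 8, was centred 561 bp downstream of the GENCODE TSS at 89044162, inside its first intron, and covered a RefSeq start at 89043512. A further shared region of 2.37 and 1.43, at 89042601 to 89042920, covered a second RefSeq start at 89042862 and had 6 footprints in replicate 1 and 3 in replicate 2. Over the GENCODE TSS itself replicate 1 alone had a peak of 0.522 in the longer list. Sall1 is also transcribed in neural progenitors and some other cells, and which cells carry this signal was not tested.

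By the FDR track 3 of 9 members, Aif1, Spi1 and Sall1, had a promoter base under 0.05 in both replicates, against 61.9% of all coding genes. A promoter footprint in both replicates was found at 2 of 9, Aif1 and Spi1, against 58.5%. At Trem2 and Sall1 replicate 2 alone had a footprint within 500 bp of a start site, and at the remaining 5 genes neither replicate had one.

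The 9 loci together spanned 1219 kb and held 130 regions with a peak in any list, of which 64 were shared, 30 were found in replicate 1 alone and 36 in replicate 2 alone. In the stricter lists 43 regions were shared: 2 at a member's own promoter, 18 at promoters of other genes, 8 within 2000 bp of some TSS and 15 distal, over 2000 bp from every annotated TSS. At least 1 shared distal region lay in 6 of 9 loci in the stricter lists, against 65.6% of all coding genes, and in 7 of 9 in the longer lists, against 77.3%. The median was 2 per locus for the 9 genes and 1 for all coding genes in the stricter lists, and 3 and 2 in the longer lists. These shares and medians lie close to those of all coding genes.

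Of the 15 distal regions only 5 had the member itself as the gene with the nearest TSS, 2 of them at Cx3cr1 and 1 each at Csf1r, Trem2 and Spi1. The longer lists had 25 distal regions, 7 of them nearest to a member, the further ones being at P2ry12 and Spi1. The annotated Cx3cr1 gene is 168 kb long because of its longest transcript, so its locus also takes in the promoters of Wdr48, Gorasp1, Csrnp1, Slc25a38 and the transcript Gm2449. The neighbouring promoters in the other loci were those of Sart3 and Iscu beside Tmem119, Hmgxb3 beside Csf1r, Csnk2b, D17H6S53E, Bag6 and Gm17705 beside Aif1, and Psmc3 and Slc39a13 beside Spi1. In the stricter lists these 18 neighbouring promoter regions had heights from 1.08 to 7.69 in replicate 1 and from 0.885 to 6.87 in replicate 2. The Sall1 promoter lay within those ranges, and the Aif1 promoter, at 0.993 and 0.763, lay below both.

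**Figure D3:**
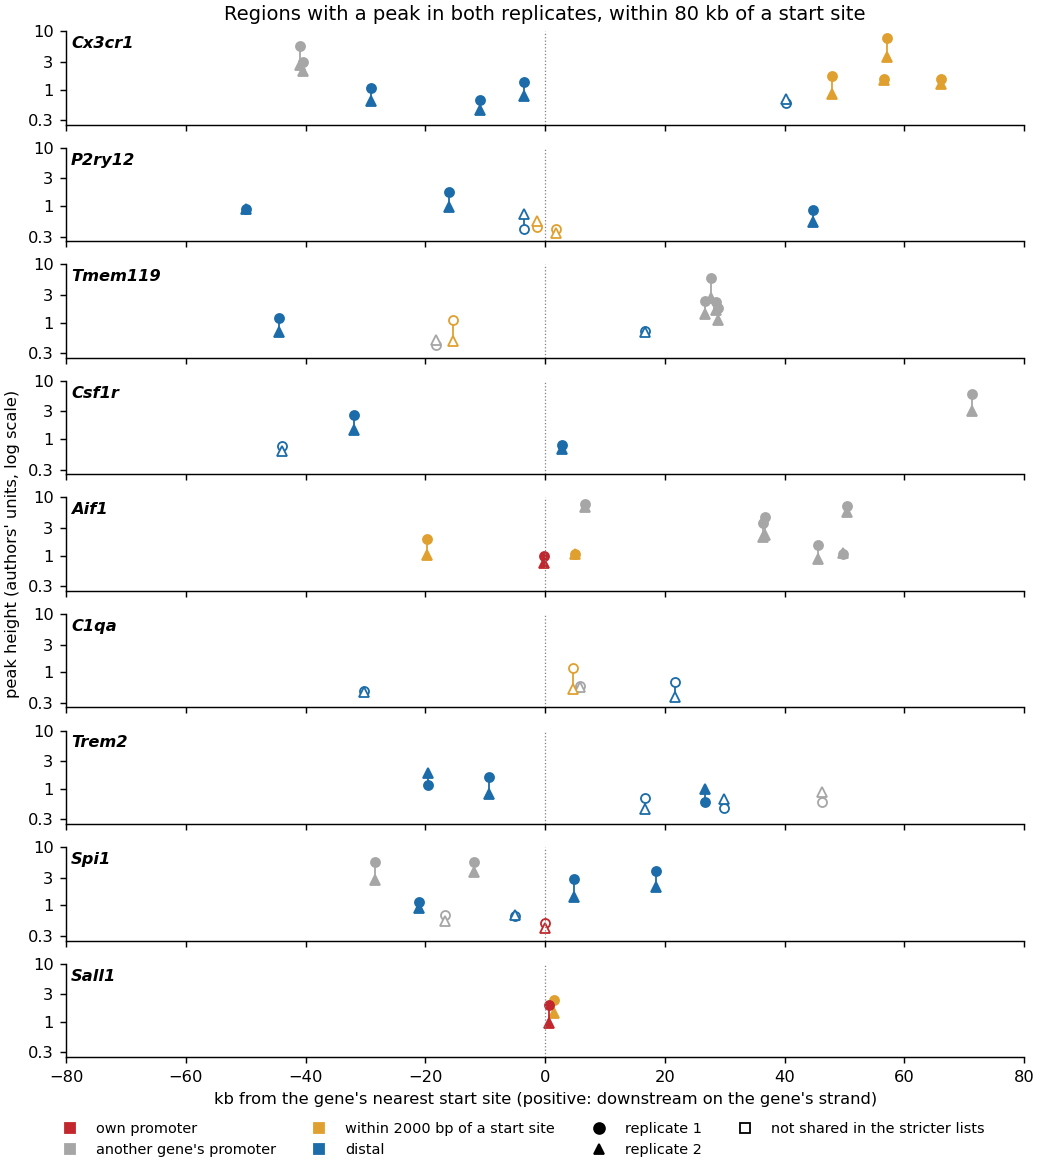
Shared regions by distance in kb from the gene's nearest start site (horizontal axis, positive downstream on its strand, up to 80 kb) and height on a log scale (vertical axis, the authors' units), with circles for replicate 1, triangles for replicate 2, open symbols for regions not shared in the stricter lists, and colours for own promoters (red), promoters of other genes (grey), regions within 2000 bp of a start site (yellow) and distal regions (blue). Red symbols appear at Aif1, Spi1 and Sall1 alone, and the Sall1 panel holds no distal region.

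At Csf1r the shared distal region lay 2822 bp downstream of a start site, at 61108481 to 61108920 on chromosome 18, in the second intron of the coding transcript ENSMUST00000025523. Its heights were 0.781 in replicate 1 and 0.689 in replicate 2, above 41.3% and 49.9% of the stricter peaks, with 3 and 4 footprints. The lowest FDR was 4.48e-06 in replicate 1 and 2.2e-08 in replicate 2, lower in replicate 2 although the height was greater in replicate 1. An intronic enhancer of Csf1r that macrophages use, known as FIRE, is described in this intron in mice, and whether the region coincides with it was not tested. The region holds the MAF recognition letters TGCTGAC and an AP-1 match. The tallest distal region of the locus, at 2.56 and 1.43, lay 32.0 kb upstream within Pdgfrb, the gene of a mural cell receptor, and held a CTCF motif.

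At Cx3cr1 the region shown above lay 3482 bp upstream of the nearest start site, with heights of 1.34 in replicate 1 and 0.770 in replicate 2, above 67.2% and 57.0% of the stricter peaks. It had 4 footprints in replicate 1 and 3 in replicate 2, and its lowest FDR was 7.76e-13 and 5.48e-07. A second region 10.9 kb upstream had heights of 0.674 and 0.452, and another 29.0 kb upstream, nearer to the transcript Gm47050, had 1.08 and 0.641. All 3 regions were higher in replicate 1, whereas the promoter had signal in replicate 2 alone.

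P2ry12 lies within Med12l, which is transcribed from the other strand, so peaks here cannot be assigned to either gene. In the first intron of P2ry12 the region at 59231001 to 59231240 on chromosome 3, shown above, had a height of 0.402 in the longer list of replicate 1 and 0.743 in the stricter list of replicate 2. Next to it, at 59228757 to 59229240, the heights were 0.440 in the longer list of replicate 1 and 0.547 in the stricter list of replicate 2, with 2 and 7 footprints. That second region held the letters GGAANNGAA, a PU.1-IRF composite site, outside the footprints of both replicates, shown in capitals.
P2ry12 PU.1-IRF site, chr3:59228892-59228924, plus strand: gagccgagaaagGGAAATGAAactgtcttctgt
The letters occur on either strand in 9.24% of all 23895 shared distal regions of the stricter lists, read in windows of 300 bp. In the longer lists the share is 9.59% of 45009. These shares are not like for like, since the P2ry12 region is 484 bp wide, within 2000 bp of a TSS and shared in the longer lists only.

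The tallest distal region in the P2ry12 locus, 1.72 in replicate 1 and 0.952 in replicate 2, lay 16.0 kb upstream of its nearest start site within both genes and was closer to a Med12l TSS. A region at 0.402 and 0.351, found in the longer lists only, lay 1817 bp downstream of a start site at 59260901 to 59261127. The remaining distal regions of the stricter lists, at 0.851 and 0.540 and at 0.907 and 0.885, were 44.7 kb and 49.96 kb away, in Med12l.

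At Trem2 the region shown above lay 9340 bp upstream, in intergenic sequence, with heights of 1.58 in replicate 1 and 0.804 in replicate 2 and a single footprint in each. The tallest region of the locus in replicate 2, at 1.17 in replicate 1 and 1.89 in replicate 2, lay 19.5 kb upstream in an exon of B430306N03Rik, and another region, 26.7 kb downstream, had 0.591 and 0.986. These were the only 2 of the 15 distal regions of the stricter lists with a log2 height ratio of replicate 2 over replicate 1 above 0, at 0.69 and 0.74.

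At Spi1 the region shown above lay 4801 bp downstream of the internal start site, in the second intron of all 3 of its coding transcripts, with heights of 2.88 in replicate 1 and 1.42 in replicate 2. It stood above 86.2% and 83.3% of the stricter peaks, had 5 and 2 footprints and reached an FDR of 1.07e-27 and 4.59e-16. The tallest distal region of all 9 loci, at 3.91 and 2.04, lay in the last exon of Spi1 and 2883 bp from the TSS of Mybpc3. A weaker region 5060 bp upstream of a start site had 0.656 in the stricter list of replicate 1 and 0.696 in the longer list of replicate 2, and a region in an intron of Psmc3 had 1.15 and 0.912.

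The locus of Tmem119 held 1 shared distal region in the stricter lists, 44.4 kb upstream within Coro1c, with heights of 1.21 in replicate 1 and 0.696 in replicate 2. The promoter of its neighbour Selplg, which encodes the P-selectin ligand that microglia also express, was shared in the longer lists only, at 0.414 and 0.506. In the longer lists the Tmem119 locus also held a shared distal region 16.7 kb downstream, nearest to Iscu. Its heights were 0.721 in the stricter list of replicate 1 and 0.702 in the longer list of replicate 2. Aif1 and Sall1 had no shared distal region in either pair of lists. C1qa had none in the stricter lists and 2 in the longer ones, at 0.691 and 0.385 near C1qb and at 0.479 and 0.452 toward Epha8.

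**Figure D4:**
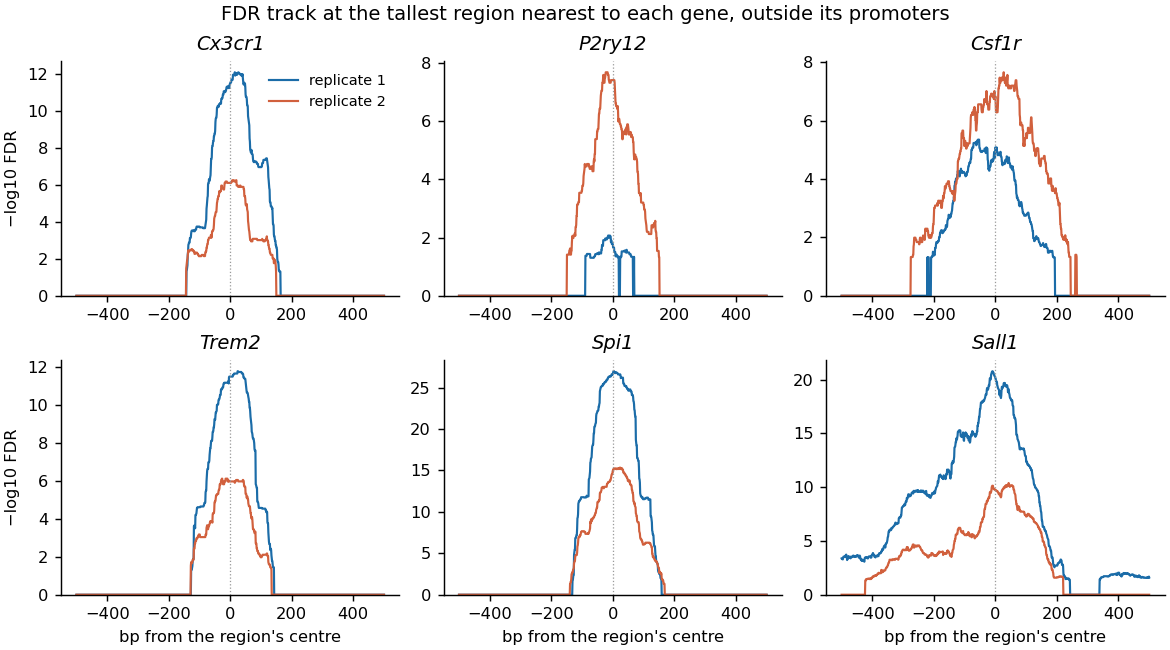
FDR of the cut rate as −log10 (vertical axis, 0 where no base is listed) against distance in bp from the centre of the tallest region nearest to each gene outside its promoters, for replicate 1 (blue) and replicate 2 (orange). Replicate 1 is higher at Cx3cr1, Trem2, Spi1 and Sall1, and replicate 2 is higher in the introns of P2ry12 and Csf1r.

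The 2 libraries differed in height at these regions. The median log2 ratio of replicate 2 over replicate 1 was -0.76 over the 15 distal regions of the 9 loci and -0.80 over the 5 nearest to a member, against -0.20 over all 23895 shared distal regions. Of the 15 regions 2 were higher in replicate 2, or 13.3%, against 38.2% of all. In the longer lists the medians were -0.33 over 25 regions and -0.07 over all 45009. The promoters of Aif1, Spi1 and Sall1 had ratios of -0.38, -0.28 and -1.04.

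The counts of sequence motifs in the distal regions of these loci are too small to set them apart from all shared distal regions. The letters GAGGAAGT, on either strand, were found in 0 of 15 regions of the stricter lists in windows of 300 bp (exact 95% interval 0% to 21.8%), against 2.18% of all 23895, and in 0 of 25 of the longer lists, against 2.31%. The interval covers counting error over regions only. The shorter ETS core GGAAGN, which the PU.1 letters overlap, was found in 11 of 15 (73.3%), against 69.7% of all. Neither the RUNX letters TGTGGTT nor the C/EBP letters TTGCNNAA were found in any of the 15, against 5.90% and 13.8% of all. The MAF letters were found in 1 of 15 (6.67%), against 6.42% of all, and the PU.1-IRF letters in 1 of 15 (6.67%), in the region 19.5 kb upstream of Trem2, against 9.24%. The NEUROD-type E-box CAGATG, a site of neuronal factors, was found in 6 of 15 (40.0%, exact 95% interval 16.3% to 67.7%), against 30.3% of all, and in 0 of the 5 regions nearest to a member. The AP-1 letters TGANTCA were found in 2 of 15 (13.3%), against 18.5% of all, and the CTCF motif in 2 of 15 (13.3%), against 12.4%. A motif absent from these windows says only that the letters are not there.

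Other genes of microglial biology were counted in the same way. Of 55 such genes 25 had a promoter peak in both replicates in the stricter lists, against 56.2% of all coding genes. In the longer lists 33 of 55 had one, against 61.0%. The median CpG ratio at the outermost start site ran from 0.161 for complement genes to 0.824 for transcription factors. Its part in the counts of these lists was not tested. Signals that act on microglia were open at 4 of 6 genes in the stricter lists and 5 of 6 in the longer ones, led by Cx3cl1, the neuronal ligand of CX3CR1, with heights of 4.27 in replicate 1 and 2.65 in replicate 2, and by Csf1 with 1.15 and 0.709. Surface receptors were open at 4 of 14 and 5 of 14, led by the TGF-beta receptor gene Tgfbr1 at 5.08 and 3.38 and the Fc receptor gene Fcgr3 at 2.38 and 1.42, whose peak also lies within 500 bp of the start of Mir6546. P2ry13, Gpr34, Siglech, Cd33, Itgam and Itgb2 had no promoter peak in any list.

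Adaptors and signalling genes were open at 1 of 7 and 2 of 7, namely Inpp5d, a lipid phosphatase of immune cells, at 1.16 and 1.53, and in the longer lists the kinase gene Syk at 0.842 and 0.405. Of 3 complement genes 0 were open in the stricter lists and C1qc alone in the longer ones. Lysosomal and secreted products were open at 5 of 6 in both, led by the protease gene Lgmn at 7.54 and 5.92 and the protease inhibitor gene Cst3 at 4.60 and 2.15. Transcription factors were open at 8 of 10 and 9 of 10, led by Mef2a at 5.94 and 2.65 and Cebpa at 4.51 and 2.07. The Cebpa peak also lies at a start of Gm45091. Genes of the disease-associated state were open at 3 of 9 and 6 of 9, led by the cathepsin genes Ctsd at 6.74 and 3.81 and Ctsb at 3.35 and 1.62. Many of these leading genes are also expressed by neurons, astrocytes or other cells, and which cells carry the peaks was not tested.

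**Figure D5:**
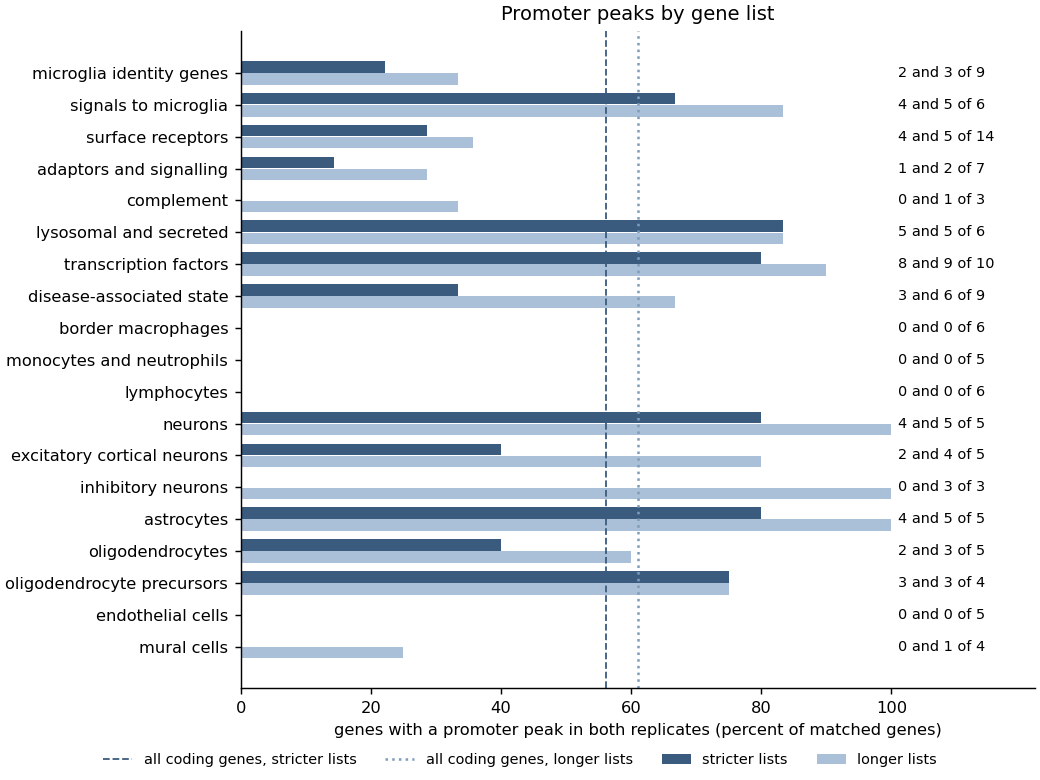
Percent of matched genes in each list with a promoter peak in both replicates (horizontal axis), in the stricter lists (dark bars) and the longer lists (light bars), with the counts at the right and the share of all coding genes as vertical lines at 56.2% and 61.0%. The 9 microglia identity genes, at 2 and 3 of 9, lie left of both lines, while the lists for border macrophages, monocytes and neutrophils, lymphocytes and endothelial cells have no bar.

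Markers of other cell types were counted beside the members, in lists that differed in CpG. The median ratio at the outermost start site was 0.211 for the 9 members, 0.549 for neurons, 0.313 for astrocytes and 0.162 for oligodendrocytes. Its part in the counts below was not tested. Both replicates had a promoter peak in the stricter lists at 4 of 5 neuronal, 4 of 5 astrocyte, 3 of 4 oligodendrocyte precursor, 2 of 5 oligodendrocyte and 2 of 5 excitatory neuron genes. The counts in the longer lists were 5 of 5, 5 of 5, 3 of 4, 3 of 5 and 4 of 5. All 3 inhibitory neuron genes were open in the longer lists and 0 in the stricter ones. Border macrophages (6 genes), monocytes and neutrophils (5), lymphocytes (6) and endothelial cells (5) had 0 in both, and mural cells had 0 and 1 of 4. Mrc1, Lyve1, Ccr2 and Cd3e, used as markers of border macrophages, monocytes and T cells, had no promoter peak in any list of either replicate. Of the same lymphocyte list, Cd4 had a promoter peak of 0.449 in the longer list of replicate 1 and none in replicate 2.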

How the data were processed

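DNase-seq was measured in 2 libraries of left cerebral cortex, taken as replicates 1 and 2 of a single group per the labels. The authors deposited for each library, on mm10 per the notes deposited with the files, 2 peak lists with a height (a signal), a footprint list whose score column holds the constant 0.01, and a track of FDR values, on the scale of a q-value, that lists bases under 0.05. Footprints were used as positions only. Which aligner and callers were used, with what settings, and whether DNase I sequence bias was corrected, are points the labels and notes used here do not state, nor whether reads of the CAST/EiJ alleles aligned as well as those of C57BL/6J.

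Overlapping peaks of a list were joined and given the highest height. Peak ends were checked against the chromosome lengths, and 21 of 21 fitted. Genes came from GENCODE M21 and sequence from GRCm38.p6, with promoters from RefSeq. The analysis used Python 3.11.15, pandas 2.3.3, numpy 2.4.6, scipy 1.17.1 and pysam 0.24.0, and the interval and motif steps were tested on simulated data. Intervals are exact Clopper-Pearson.

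The members and the gene lists were chosen with earlier results of these data known. All 9 members are named. From every other microglia-related list the text names the 2 genes with the largest geometric mean height in both stricter lists, or else in the longer ones, and 1 of 109 listed genes had no match among coding genes. Of distal regions the 2 tallest in each locus and those nearest to a member are described. Genes named for an absent peak, and the distal sequences shown, were chosen after their values were seen. Alternative windows, loci, peak sets, FDR limits and single replicates are given at the end.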

Additional observations from a re-analysis of the deposited data

How the results depend on the processing

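Of the recounts of these results, 25 stayed within 1.5 times the reported count and 19 did not. The 2 genes with a promoter peak in both stricter lists became 1 with windows of 250 bp and 0 where the peak had to cover a TSS base, a rule added after the data were seen. The 3 genes in the longer lists became 4 with windows of 1000 bp, 5 with windows of 2000 bp and 1 with a peak over a TSS base. The 15 distal regions of the stricter lists became 9 with loci of 20 kb, 27 with 100 kb, 23 where distal began at 500 bp and 9 with the peaks at or above each list's median height. The 25 of the longer lists became 16, 48 and 38 under the first 3 of these. The 2 genes with a footprint in both became 4 with windows of 1000 bp. The PU.1 share of 0% became 73.3% with the ETS core.

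Leaving out 1 library at a time, and so counting the other alone, gave 2 to 2 promoters in the stricter lists and 3 to 6 in the longer ones, 21 to 25 and 39 to 50 distal regions, 3 to 6 genes by FDR and 2 to 4 by footprint. The higher counts of genes came from replicate 2 alone. Taking the shorter Cx3cr1 transcripts as its gene body, also added later, left 15 and 24 distal regions. The promoter heights of Aif1 and Sall1 were the same in the longer lists. With windows of 2000 bp the Aif1 heights were also the same, while those of Sall1 were 2.37 in replicate 1 and 1.43 in replicate 2, against 1.94 and 0.945 as reported, and with 250 bp Sall1 had none in the stricter lists. With 2 libraries, unknown depth and 1 group, no error on a height could be given beyond the 2 values themselves.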

Other observations

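Some of the FDR signal in the 9 loci lay outside every peak of the same replicate. The track listed 182 separate stretches of bases in replicate 1 and 173 in replicate 2, of which 50 and 40 touched no peak of that replicate in either list. Peaks of the other replicate were not considered in this count. The longest of those measured 34 bp in replicate 1 and 28 bp in replicate 2, and 0 of them overlapped between the replicates. At C1qa the only regions nearest to its own TSS were found in a single replicate: replicate 2 had peaks of 0.378 and 0.304 in the longer list, 9207 and 13187 bp upstream, and replicate 1 had a peak of 0.479, 25910 bp upstream. At Sall1 replicate 1 had 6 peaks that replicate 2 lacked within 3031 bp of the TSS, with heights from 0.436 to 0.522, all in the longer list.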
